A study of Homo sapiens with 24 samples.

Results

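The set of genes described here holds 34 members of the endoplasmic reticulum (ER) protein folding machinery and of the unfolded protein response, out of 26475 genes with a value in each library. Members were chosen by name, as chaperones, folding enzymes, degradation factors, translocon subunits and stress sensors, and PPIB was named with the observation that 786-M1A cells held less of it with shPAX8-1 than with shPAX8-2. All 34 had an expected count above 0 in all 24 libraries, and all 34 passed the filter on low counts in both cell lines. In OS-LM1, DERL3 passed it only through the sgNTC18 libraries.

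The study examined the transcription factor PAX8 in clear cell renal cell carcinoma (ccRCC), and the libraries used here are poly(A) RNA-seq of 2 established cell lines, 786-M1A and OS-LM1, both derived from VHL-mutant parental lines by selection for metastasis. Each line carried either of a pair of RNAi constructs against PAX8 (shPAX8-1 or shPAX8-2) or sgNTC18, a non-targeting guide, with 4 replicates per line and construct. All cells were grown in RPMI with 10% FBS and harvested at 80% confluence. Nothing states that replicates were separate cultures, so p-values measure the spread between these libraries, which may be technical. The control libraries carry a guide RNA and not an RNAi construct, and nothing states that they were grown and sequenced in one experiment with the shPAX8 libraries. Depletion of PAX8, the kind of construct and any such batch therefore cannot be told apart in any comparison with sgNTC18. The comparison of shPAX8-1 with shPAX8-2 sets 2 RNAi constructs against each other, and there the extent of depletion and any other effect of a construct cannot be told apart.

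Secreted and membrane proteins fold in the ER, where HSPA5 (BiP) and HSP90B1 (GRP94) bind unfolded chains, CALR and CANX hold glycoproteins, and the protein disulphide isomerases form disulphide bonds. When unfolded protein accumulates, the sensors IRE1 (ERN1), ATF6 and PERK (EIF2AK3) signal from the ER membrane. IRE1 splices the XBP1 transcript, ATF6 is cleaved to a transcription factor, and both raise the transcription of chaperone and degradation genes, many of them through the ER stress response element (ERSE) in their promoters, while PERK slows translation. Splicing, cleavage and phosphorylation were not measured by these gene counts.

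The sequences of the RNAi constructs are shown first, because the main comparison sets one against the other. Each is 22 bases long, written 5′ to 3′ as DNA, with bases 2 to 8 in capitals, the stretch by which a short RNA first pairs with a transcript.
shPAX8-1: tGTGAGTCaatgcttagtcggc
shPAX8-2: tAGAGTTGtgttaataatggag
Their exact complements were found in PAX8, on the minus strand of hg38 with the GENCODE annotation. That of shPAX8-1 lay at chr2:113241690-113241711, in the coding part of exon 7 of the transcripts PAX8-201 and PAX8-202, and that of shPAX8-2 at chr2:113218122-113218143, in the 3′ UTR (exon 12 of PAX8-201 and exon 10 of PAX8-202).

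Promoter windows of RefSeq (GRCh38.p14), from 250 bases before to 50 bases after the start of transcription, were matched to 31 of the 34 members, and PDIA3, DERL1 and DERL3 had no entry. CANX had 4 windows, and PDIA4, PDIA6, TXNDC5, XBP1 and SEC61A1 had 2 each. A match in any window of a gene counted. They were searched on both strands for the letters of the ERSE (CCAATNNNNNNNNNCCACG), of the related ERSE-II (ATTGGNCCACG) and of the unfolded protein response element (TGACGTGG). The ERSE letters were found in 8 members, which is 25.8% of the 31 and compares with 0.0916% of the 27305 genes that had a window. The element is known from chaperone promoters, as described above, so this excess is not a separate result. ERSE-II was found in 3 members (HERPUD1, HYOU1 and SDF2L1), against 0.0696% of genes, and TGACGTGG in HYOU1 and TXNDC5, against 0.927% of genes. In HYOU1 the TGACGTGG and one ERSE-II match overlapped. The whole windows of HSPA5 (chr9:125241294-125241593, minus strand) and HERPUD1 (chr16:56931892-56932191, plus strand) are printed as the examples of either element, with the fixed letters of the match in capitals.
HSPA5 promoter: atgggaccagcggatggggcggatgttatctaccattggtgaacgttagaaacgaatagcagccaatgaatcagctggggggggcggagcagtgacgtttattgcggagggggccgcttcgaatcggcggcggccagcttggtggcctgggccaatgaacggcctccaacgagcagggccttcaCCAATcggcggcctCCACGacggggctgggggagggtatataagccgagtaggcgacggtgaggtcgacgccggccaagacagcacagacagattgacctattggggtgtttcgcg
HERPUD1 promoter: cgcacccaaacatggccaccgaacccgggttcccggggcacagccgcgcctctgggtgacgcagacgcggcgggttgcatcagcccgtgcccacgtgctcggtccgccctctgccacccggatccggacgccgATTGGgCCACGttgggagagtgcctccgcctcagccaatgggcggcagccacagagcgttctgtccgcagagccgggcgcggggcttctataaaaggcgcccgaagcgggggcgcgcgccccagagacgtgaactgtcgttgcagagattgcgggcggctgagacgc

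For the other 9 members with a match, the match is printed in capitals with 6 bases on each side, on the strand of the gene, because these are the genes that are later described as a group. A match on the other strand reads as its reverse complement, with CGTGG before ATTGG or CCAAT. HSP90B1 and HYOU1 each hold a second match, not printed.
HSP90B1: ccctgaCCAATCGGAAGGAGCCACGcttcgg
CALR: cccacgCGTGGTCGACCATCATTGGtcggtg
CANX: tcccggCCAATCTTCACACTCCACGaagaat
PDIA6: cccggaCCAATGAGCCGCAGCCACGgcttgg
CRELD2: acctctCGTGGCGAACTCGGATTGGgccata
SERP1: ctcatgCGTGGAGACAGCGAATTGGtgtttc
XBP1: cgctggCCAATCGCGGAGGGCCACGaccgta
HYOU1: ccgtgaCGTGGTCCAATcccagg
SDF2L1: cggaagCGTGGACCAATcaaaac
The matches lay at chr12:103930216-103930234 for HSP90B1, chr19:12938384-12938402 for CALR, chr5:179698778-179698796 for CANX and chr2:10812853-10812871 for PDIA6. Those of CRELD2, SERP1 and XBP1 lay at chr22:49918554-49918572, chr3:150546710-150546728 and chr22:28800603-28800621, and those of HYOU1 and SDF2L1 at chr11:119057380-119057390 and chr22:21642114-21642124. Those of CANX and PDIA6 lay inside the annotated genes (chr5:179678656-179731641 and chr2:10783391-10837712), before a start other than the outermost. Whether these cells use that start was not measured. A match is a description of the letters and does not show that a factor binds there.

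The libraries held from 11634419 to 52059375 expected counts each. PAX8 was lower with both constructs in both lines. In 786-M1A cells it stood at 292, 393, 359.8 and 319 CPM (counts scaled to the TMM-normalised library size) with sgNTC18, at 41.4, 45.5, 42.6 and 40.0 CPM with shPAX8-2 and at 22.9, 21.9, 15.2 and 14.8 CPM with shPAX8-1. In OS-LM1 cells it stood at 262, 279, 245 and 254 CPM with sgNTC18, at 76.2, 63.8, 97 and 79.9 CPM with shPAX8-2 and at 85.6, 78.4, 59.8 and 89.2 CPM with shPAX8-1. PAX8 differed between the constructs by -1.18 ± 0.15, adjusted p = 4.01e-05 on the log2 scale in 786-M1A cells, and by -0.05 ± 0.12, adjusted p = 0.797 in OS-LM1 cells. The renal marker PAX2 was present in all libraries, while CA9 was between 0 and 0.162 CPM in 786-M1A cells. Of 6 markers of other cells, PTPRC, PECAM1 and CDH5 stayed at or below 0.777 CPM everywhere, and PDGFRB was between 189 and 877 CPM in 786-M1A cells and at or below 1.25 CPM in OS-LM1 cells. CD68, a leukocyte marker, had means of 80.8 ± 6.35 CPM with sgNTC18, 227 ± 31.7 CPM with shPAX8-2 and 303 ± 55.6 CPM with shPAX8-1 in OS-LM1, and of 202 ± 12.9, 350.2 ± 39.6 and 246 ± 51.0 CPM in 786-M1A (SD, n = 4). COL1A1, a fibroblast collagen, had means of 16.2 ± 2.35, 166 ± 47.2 and 102 ± 9.73 CPM in OS-LM1 and of 3.51 ± 1.08, 9.43 ± 1.62 and 6.62 ± 1.71 CPM in 786-M1A. Both rose over sgNTC18 with each construct in both lines, except CD68 with shPAX8-1 in 786-M1A (0.30 ± 0.13, adjusted p = 0.0532). The sum of the 6 in 786-M1A cells was 718 to 929 CPM with sgNTC18, 970 to 1263 CPM with shPAX8-2 and 394 to 726 CPM with shPAX8-1, and in OS-LM1 cells 93.6 to 104 CPM, 315 to 457 CPM and 338 to 468 CPM. Their part in the results was not tested.

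The 4 libraries of 786-M1A with shPAX8-1 fell into pairs. The counts of 2 libraries were compared by a chi-square statistic per gene. It reached 14.1 for replicates 1 and 2 and 3.73 for replicates 3 and 4, and 44.7 to 77.4 for libraries of different pairs. Other groups were uneven too. In 786-M1A shPAX8-2 it was 3.96 for replicates 1 and 2, 11.7 for replicates 3 and 4 and 14.9 to 19.2 across these. In OS-LM1 it was 5.27 for replicates 1 and 4 of shPAX8-1, against 23.2 to 34.3 for its other pairs. Replicates 3 and 4 of OS-LM1 shPAX8-2 gave the highest value, 89.5. Those groups were not split. The value for replicates 3 and 4 of 786-M1A shPAX8-1 was the lowest of any pair of replicates. It was above the value near 1 that sampling noise gives, which does not show that the libraries are independent samples. Each library was counted as 1 sample in the fits, and results that rest on this group are also given with either pair alone.

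Compared per length of transcript, the members spanned a wide range. In 786-M1A sgNTC18 libraries the calcium-binding chaperone CALR had the highest level with 1734 ± 69.6 TPM (a level scaled by transcript length and library, mean ± SD, n = 4), followed by the disulphide isomerase P4HB with 1444 ± 71.3 TPM, SEC61B with 739.8 ± 34.5 TPM and PPIB with 734 ± 9.61 TPM, of which the last pair did not differ beyond their spread. The lowest were DNAJB9 with 4.71 ± 1.27 TPM, DERL3 with 3.26 ± 0.190 TPM and ERN1 with 1.82 ± 0.376 TPM. With shPAX8-1 in the same line CALR remained highest with 2654 ± 197 TPM and HSP90B1 came next with 1925 ± 439 TPM, against 339 ± 55.5 TPM with sgNTC18. In OS-LM1 sgNTC18 libraries CALR with 1346 ± 66.8 TPM and P4HB with 1326 ± 104 TPM overlapped, PPIB followed with 935 ± 35.9 TPM, and DERL3 was lowest with 0.875 ± 0.253 TPM.

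**Figure D1:**
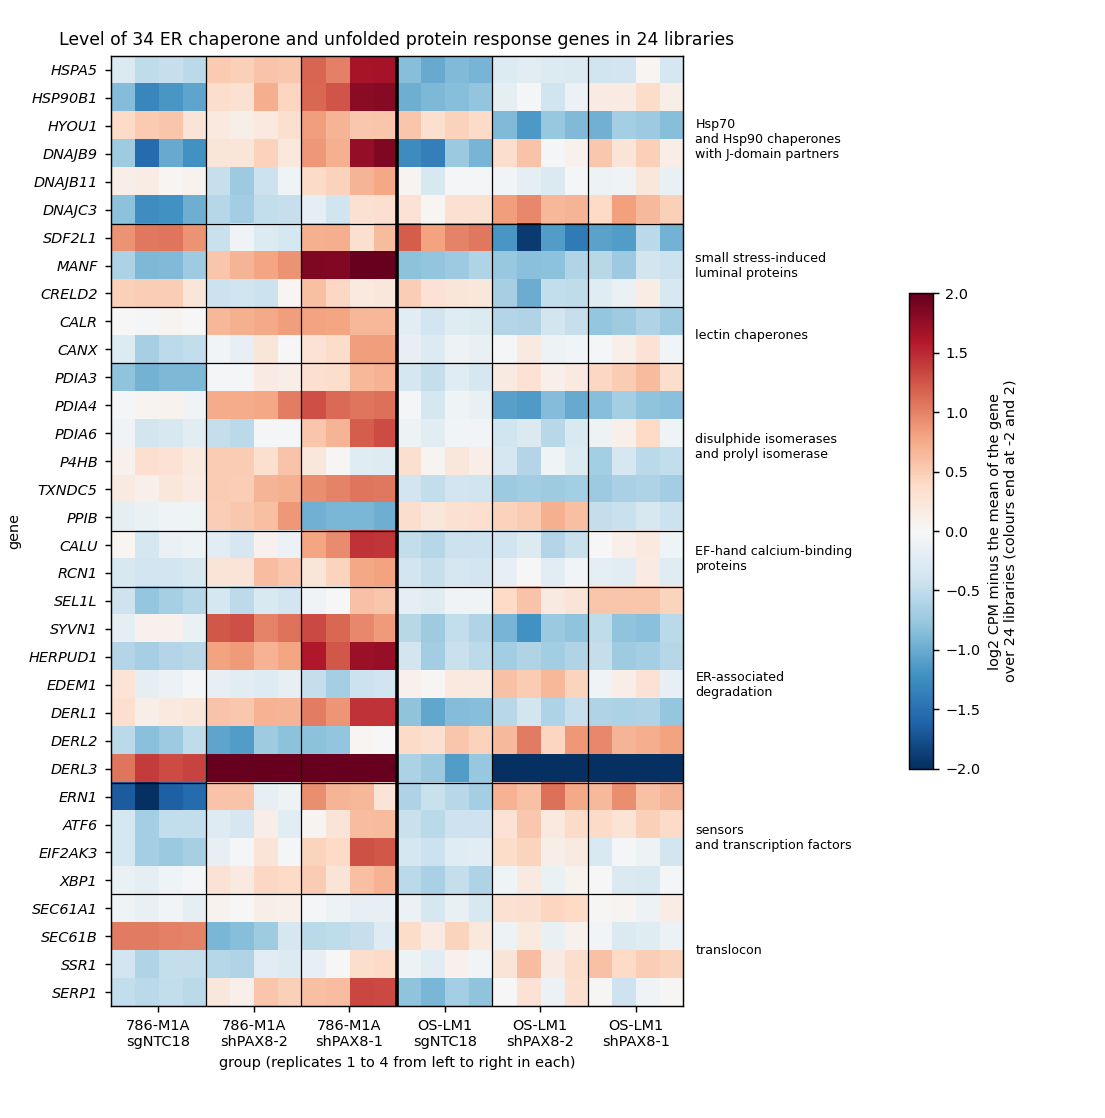
Level of each of the 34 members (vertical axis, by role) in each of the 24 libraries (horizontal axis, by group, replicates 1 to 4 from left to right), as log2 CPM minus the gene's mean over all libraries. In 786-M1A cells most members are highest with shPAX8-1 and most of these more so in replicates 3 and 4, while in OS-LM1 cells the groups with shPAX8 lie lower for SDF2L1, HYOU1, PDIA4 and DERL3.

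Which members differed between the constructs in 786-M1A cells was asked first. Most chaperones and cofactors rose with shPAX8-1. MANF, a secreted stress-induced protein of the ER lumen, was 2.53 times as high, CALU, a calcium-binding protein of the secretory pathway, 2.50 times and HSP90B1 2.11 times. Of the 33 members other than PPIB, 24 were higher with shPAX8-1 at an adjusted p under 0.05, 2 were lower (P4HB and EDEM1) and 7 did not pass. Among all 14452 genes tested in this line, 24.2% were higher and 22.9% were lower. The members' median log2 fold change was 0.59, with PPIB included, against -0.02 over all genes tested. All 6 Hsp70 and Hsp90 chaperones and J-domain partners rose, and so did the 3 small stress-induced proteins, 5 of 7 degradation factors, 4 of 6 isomerases, 2 of 4 sensors and factors and 2 of 4 translocon members. With replicates 1 and 2 of shPAX8-1 alone, 18 members were higher and 3 lower, PPIB included, against 12.7% and 13.1% of all genes. With replicates 3 and 4 alone 26 were higher and 3 lower, against 29.8% and 31.0% of all genes.

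Base composition moved with this comparison. The log2 fold change had a Spearman correlation of -0.56 with the GC content of the longest annotated transcript over 13048 genes, and of -0.39 over the 34 members, whose points share the same 8 libraries. After removal of the GC trend from each library, 27 members were higher and 4 lower with PPIB counted, where the main fit gave 24 and 3. The shares of all genes after removal were 24.5% and 22.5%. The members' median log2 fold change was then 0.44, with PPIB included. The members' median GC content was 45.5%, against 47.8% over the genes tested.

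In OS-LM1 cells the constructs differed for fewer members. CRELD2, a disulphide isomerase-like ER protein, and CALU were higher with shPAX8-1, at 1.41 and 1.36 times the level with shPAX8-2, and EDEM1, which directs misfolded glycoproteins to degradation, was lower at 0.69 times. Of the 34 members, 5 were higher (CRELD2, CALU, PDIA6, HSP90B1 and PDIA3) and 5 lower (PPIB, EDEM1, EIF2AK3, SEC61A1 and CALR), against 12.4% of all 15049 genes higher and 16.7% lower, which is close to the members' shares of 14.7% each. Without replicate 3 of OS-LM1 shPAX8-2, 8 members were higher, a count for which the share of all genes is not given here. The median log2 fold change was 0.00 over the members and -0.03 over all genes. With the GC trend removed, 8 members were higher and 8 lower, against 14.6% and 19.2% of all genes.

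The difference between the lines in this contrast was tested itself, as the log2 fold change between the constructs in OS-LM1 minus that in 786-M1A. It was below 0 and past the threshold for 18 members and above 0 for 1, which was PPIB, whose 786-M1A contrast entered the choice of genes, whereas 12.7% of all 15665 genes were above and 14.5% below. EIF2AK3 had the most negative value (-1.36 ± 0.23, adjusted p = 8.29e-05), and MANF (-1.10 ± 0.15, adjusted p = 9.73e-06) and DNAJB9 (-0.99 ± 0.30, adjusted p = 0.0149) also differed. With replicates 1 and 2 of the 786-M1A shPAX8-1 group alone, 10 members were below 0 and 1 above, against 8.0% and 7.9% of all genes. With replicates 3 and 4 alone 22 were below and 3 above, against 20.9% and 21.0% of all genes. Without replicate 1 of that group alone, 3 were above, and the share of all genes in that fit is not given here.

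**Figure D2:**
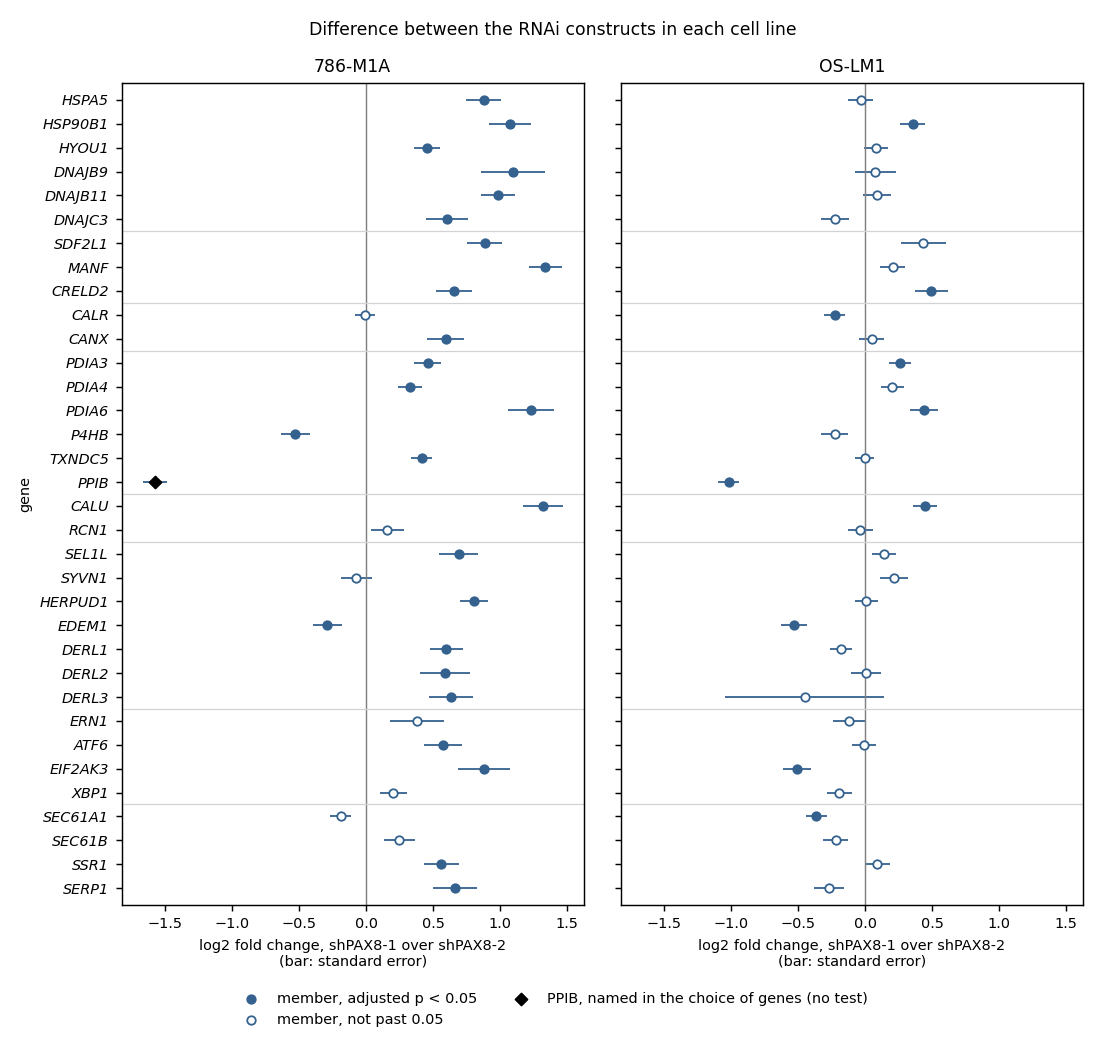
Log2 fold change of shPAX8-1 over shPAX8-2 (horizontal axis) for each member (vertical axis) in 786-M1A (left) and OS-LM1 (right), with standard errors. Filled points passed an adjusted p of 0.05, open points did not, and the black diamond is PPIB in 786-M1A, for which no test is given. Most filled points lie to the right of 0 in 786-M1A, and 10 members are filled in OS-LM1.

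Against sgNTC18 the members of 786-M1A cells were mostly higher with either construct. With shPAX8-1, MANF was 7.31 times, HSP90B1 6.28 times and DNAJB9 5.62 times the sgNTC18 level, and SEC61B, the small beta subunit of the Sec61 translocon, was 0.37 times. In all, 26 members were higher and 5 lower, PPIB among the latter, against 36.1% and 34.5% of all genes tested. With replicates 1 and 2 of shPAX8-1 alone, 25 members were higher and 3 lower, against 32.1% and 33.9% of all genes. With replicates 3 and 4 alone they numbered 26 and 5, against 36.5% and 36.0%. Without replicate 3 of sgNTC18, 3 were lower, with no share of all genes given for that fit. With shPAX8-2, ERN1 was 4.08 times and DERL3 3.60 times the sgNTC18 level, SEC61B was 0.31 times, and 23 members were higher and 4 lower, against 31.5% and 30.9% of all genes tested. The median log2 fold change was 0.99 with shPAX8-1 and 0.48 with shPAX8-2, against 0.03 and 0.02 over all genes. The 2 comparisons share the sgNTC18 libraries, so their likeness is not a separate result.

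In OS-LM1 cells the same comparisons gave members in both directions. With shPAX8-1, DNAJB9 was 2.62 times and ERN1 2.40 times the sgNTC18 level, while SDF2L1, a stress-induced partner of ER J-proteins, was 0.26 times. There 17 members were higher and 10 lower, against 35.6% and 35.8% of all genes tested, with a median of 0.21. With shPAX8-2, 18 members were higher and 11 lower, against 34.3% and 34.1% of all genes, with a median of 0.28. The median over all genes was -0.01 in both. DERL3 is counted among the lower members in both, though it passed the filter on low counts here only through sgNTC18. With either construct 4 of the 6 Hsp70 and Hsp90 chaperones and J-domain partners rose and HYOU1 fell, and 4 of the 6 isomerases fell. Here too the fold change moved with GC content, with a Spearman correlation over the 34 members of -0.72 with shPAX8-1 and -0.63 with shPAX8-2, against -0.32 and -0.27 over 13551 genes. With the GC trend removed 13 members were higher and 11 lower with shPAX8-1, against 35.5% and 36.4% of all genes. With shPAX8-2 the counts were 16 and 11, against 34.5% and 34.4%. The members' medians were then 0.0041 with shPAX8-1 and 0.083 with shPAX8-2, in place of 0.21 and 0.28.

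A test of the difference between the lines in the change from sgNTC18 to the mean of both constructs was added after the values were seen. It was lower in OS-LM1 for 20 members and higher for 3, against 28.8% and 29.9% of all genes. The median was -0.57 over the members and 0.00 over all genes. With replicates 1 and 2 of 786-M1A shPAX8-1 alone 21 members were lower and 4 higher, against 30.4% and 29.3% of all genes. With replicates 3 and 4 alone they numbered 23 and 3, against 29.3% and 29.0%. DERL3, MANF, HERPUD1 and PDIA4 were the lowest, with MANF at -2.08 ± 0.13, adjusted p = 8.74e-13, and HERPUD1 at -1.90 ± 0.12, adjusted p = 2.83e-13. The DERL3 value rests on few counts in OS-LM1. SEC61B was the highest with 1.21 ± 0.13, adjusted p = 1.73e-08.

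**Figure D3:**
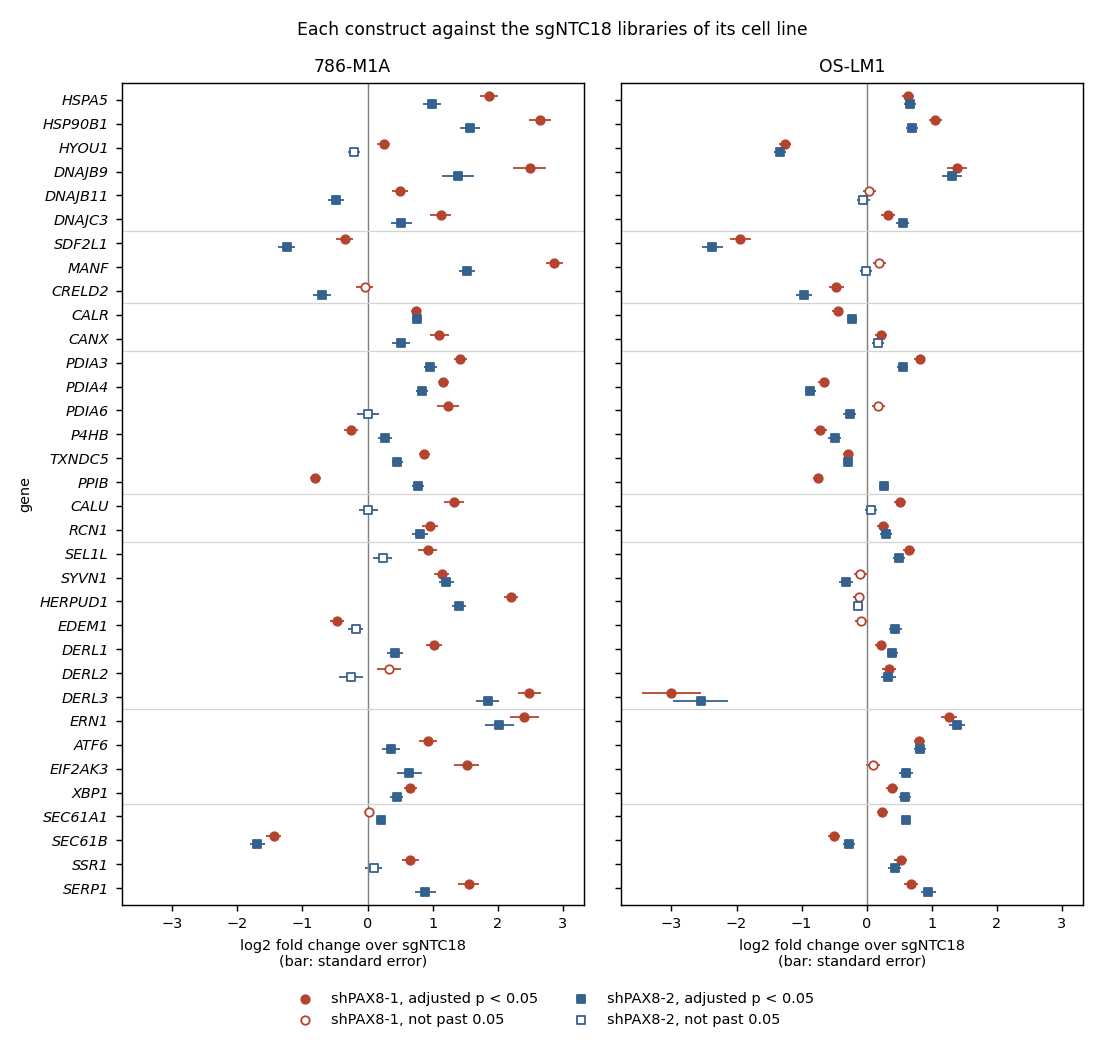
Log2 fold change over the sgNTC18 libraries of the same line (horizontal axis) for each member (vertical axis), with shPAX8-1 as circles, shPAX8-2 as squares, standard errors as bars and filled symbols for an adjusted p under 0.05. In 786-M1A most symbols lie right of 0 and SEC61B lies furthest left, whereas in OS-LM1 the symbols spread to both sides and DERL3 and SDF2L1 lie furthest left.

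The Hsp70 of the ER, HSPA5, is the usual readout of the response. In 786-M1A cells it stood at 679, 583, 601 and 569 CPM with sgNTC18, at 1194, 1148, 1231 and 1200.4 CPM with shPAX8-2 and at 1865, 1659.8, 2603 and 2635 CPM with shPAX8-1. In OS-LM1 cells it stood at 460.4, 411, 448 and 436 CPM with sgNTC18, at 683, 716, 686 and 681 CPM with shPAX8-2 and at 631, 637, 847 and 649 CPM with shPAX8-1. No group overlapped another in 786-M1A, where replicates 3 and 4 of shPAX8-1 were highest, while in OS-LM1 the constructs overlapped and both lay above sgNTC18. Over shPAX8-2, shPAX8-1 gave a log2 fold change of 0.88 ± 0.13, adjusted p = 1.59e-04 in 786-M1A and -0.03 ± 0.09, adjusted p = 0.827 in OS-LM1. Over sgNTC18 it was 1.87 ± 0.14 with shPAX8-1 and 0.99 ± 0.13 with shPAX8-2 in 786-M1A, and 0.63 ± 0.09 and 0.66 ± 0.09 in OS-LM1, all past the threshold.

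HSP90B1, the Hsp90 chaperone of the ER, had the highest counts with shPAX8-1. In 786-M1A cells it stood at 607, 448, 493 and 531 CPM with sgNTC18, at 1418, 1369.7, 1836 and 1485 CPM with shPAX8-2 and at 2449.9, 2637, 3861 and 3904 CPM with shPAX8-1. In OS-LM1 cells it stood at 563, 593, 611 and 644 CPM with sgNTC18, at 966, 1074, 838 and 1025 CPM with shPAX8-2 and at 1237, 1235, 1427 and 1205 CPM with shPAX8-1. The 3 groups did not overlap in either line and had the same order. For shPAX8-1 over shPAX8-2 it changed by 1.07 ± 0.16, adjusted p = 1.29e-04 in 786-M1A and 0.36 ± 0.09, adjusted p = 0.00733 in OS-LM1 on the log2 scale. Over sgNTC18 it was 2.65 and 1.58 in 786-M1A and 1.06 and 0.70 in OS-LM1 with shPAX8-1 and shPAX8-2, respectively, all past the threshold.

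DNAJB9 (ERdj4), a J-domain cochaperone that binds HSPA5, was among the members with few counts. In 786-M1A cells it stood at 8.26, 4.64, 6.73 and 5.88 CPM with sgNTC18, at 16, 16.1, 18.7 and 15.7 CPM with shPAX8-2 and at 24.8, 22.3, 46.0 and 49.3 CPM with shPAX8-1. In OS-LM1 cells it stood at 5.66, 5.24, 8.15 and 7.14 CPM with sgNTC18, at 17.3, 20.2, 13.3 and 14.4 CPM with shPAX8-2 and at 19.8, 16.3, 18.8 and 14.9 CPM with shPAX8-1. Both constructs lay above sgNTC18 without overlap in each line. The constructs gave 1.10 ± 0.24, adjusted p = 0.00209 in 786-M1A (log2 fold change of shPAX8-1 over shPAX8-2) and 0.08 ± 0.15, adjusted p = 0.748 in OS-LM1. Replicates 3 and 4 of shPAX8-1 were the highest in 786-M1A.

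DNAJC3 (P58IPK), another J-domain partner, differed by line. It stood at 43.4, 32.2, 32.8 and 38.7 CPM in 786-M1A and at 93.3, 78.3, 94.0 and 94.7 CPM in OS-LM1 with sgNTC18, without overlap (1.29 ± 0.14, adjusted p = 7.28e-09). In the shPAX8 libraries OS-LM1 was also higher (0.94 ± 0.10, adjusted p = 1.22e-09). HYOU1, an Hsp70-like nucleotide exchange factor for HSPA5, did not differ past the threshold between the lines with sgNTC18 (-0.01 ± 0.09, adjusted p = 0.961). With shPAX8-1 it was higher than with sgNTC18 in 786-M1A (0.25 ± 0.10, adjusted p = 0.0330), with shPAX8-2 it did not pass (-0.21 ± 0.10, adjusted p = 0.0723), and in OS-LM1 it was lower with either construct (-1.26 ± 0.09, adjusted p = 3.67e-10 with shPAX8-1 and -1.34 ± 0.09, adjusted p = 1.92e-10 with shPAX8-2). Its OS-LM1 levels were 211, 179, 199 and 187 CPM with sgNTC18, 77.7, 64.9, 84.8 and 78.3 CPM with shPAX8-2 and 74.0, 89.8, 87.3 and 79.7 CPM with shPAX8-1, so that all 8 shPAX8 libraries lay below the sgNTC18 libraries. DNAJB11 (ERdj3), a soluble J-domain partner of HSPA5, rose with shPAX8-1 over sgNTC18 in 786-M1A (0.50 ± 0.13) and fell with shPAX8-2 (-0.49 ± 0.13).

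Of the small stress-induced proteins, MANF rose and SDF2L1 fell relative to sgNTC18 in 786-M1A cells. MANF there stood at 67.5, 55.7, 56.7 and 63.9 CPM with sgNTC18, at 153, 167, 181 and 195 CPM with shPAX8-2 and at 383, 378, 477 and 519.6 CPM with shPAX8-1. Its OS-LM1 levels were 59.2, 60.1, 62.9 and 68.6 CPM with sgNTC18, 61.7, 58.4, 59.2 and 68.9 CPM with shPAX8-2 and 70.8, 63.4, 81.3 and 77.1 CPM with shPAX8-1. The 786-M1A groups were apart from each other, and the OS-LM1 groups overlapped. With shPAX8-1 over shPAX8-2 its log2 fold change was 1.34 ± 0.12, adjusted p = 2.45e-06 in 786-M1A and 0.21 ± 0.09, adjusted p = 0.107 in OS-LM1, and over sgNTC18 in 786-M1A it was 2.87 ± 0.13, adjusted p = 1.43e-10 with shPAX8-1 and 1.53 ± 0.12, adjusted p = 7.75e-08 with shPAX8-2.

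SDF2L1 in 786-M1A cells stood at 16.8, 18.7, 18.8 and 16.8 CPM with sgNTC18, at 6.60, 8.52, 7.46 and 7.06 CPM with shPAX8-2 and at 14.7, 14.9, 11.3 and 13.9 CPM with shPAX8-1. Its levels in OS-LM1 cells were 20.8, 15.7, 17.9 and 18.6 CPM with sgNTC18, 3.99, 2.39, 4.13 and 3.36 CPM with shPAX8-2 and 4.28, 4.13, 6.18 and 4.67 CPM with shPAX8-1. All shPAX8 libraries lay below the sgNTC18 libraries of their line. Over sgNTC18 the log2 fold change was -0.35 ± 0.13, adjusted p = 0.0208 with shPAX8-1 and -1.24 ± 0.13, adjusted p = 1.24e-06 with shPAX8-2 in 786-M1A, and -1.94 ± 0.16, adjusted p = 1.64e-09 and -2.37 ± 0.16, adjusted p = 1.73e-10 in OS-LM1. The first of these turned to 0.31 with the GC trend removed and then did not pass. Between the constructs SDF2L1 was higher with shPAX8-1 in 786-M1A (0.89 ± 0.13, adjusted p = 1.50e-04), and OS-LM1 gave 0.43 ± 0.17, adjusted p = 0.0626.

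CRELD2 in 786-M1A stood at 37.1, 37.8, 37.8 and 31.7 CPM with sgNTC18, 19.9, 20.3, 19.8 and 27.6 CPM with shPAX8-2 and 40.4, 35.6, 30.7 and 31.1 CPM with shPAX8-1. In OS-LM1 the levels were 37.4, 32.7, 31.7 and 31.4 CPM with sgNTC18, 16.9, 13.4, 18.9 and 18.7 CPM with shPAX8-2 and 22.6, 24.4, 29.6 and 21.5 CPM with shPAX8-1. In each line every shPAX8-1 library lay above every shPAX8-2 library. The difference between the constructs was 0.66 ± 0.13, adjusted p = 0.00145 in 786-M1A and 0.49 ± 0.12, adjusted p = 0.00461 in OS-LM1. Over sgNTC18 CRELD2 fell with shPAX8-2 in 786-M1A (-0.70 ± 0.13, adjusted p = 3.44e-04) and gave -0.05 ± 0.13, adjusted p = 0.772 with shPAX8-1, and in OS-LM1 it fell with both (-0.47 ± 0.12, adjusted p = 0.00163 with shPAX8-1 and -0.96 ± 0.12, adjusted p = 8.27e-07 with shPAX8-2).

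The lectin chaperones CALR and CANX, which hold glycoproteins while they fold, were both higher with either construct than with sgNTC18 in 786-M1A, CALR by 0.75 ± 0.07 and 0.76 ± 0.07 and CANX by 1.11 ± 0.14 and 0.51 ± 0.14 on the log2 scale with shPAX8-1 and shPAX8-2. In OS-LM1 CALR was lower with both (-0.45 ± 0.08 and -0.22 ± 0.08). All 4 shPAX8-2 libraries of 786-M1A held more CALR than any OS-LM1 library, with 2801, 2881, 2979 and 3126 CPM against at most 1517 CPM.

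Among the isomerases, PPIB, a proline isomerase of the ER (cyclophilin B), was the member named with the choice of genes. In 786-M1A cells it stood at 376, 394, 408 and 407 CPM with sgNTC18, at 604, 626, 655 and 789 CPM with shPAX8-2 and at 222, 228, 228 and 218 CPM with shPAX8-1. OS-LM1 cells held 552, 507, 535 and 543 CPM with sgNTC18, 592, 611, 704 and 654 CPM with shPAX8-2 and 309, 316, 347 and 319.8 CPM with shPAX8-1. In each line shPAX8-1 lay below and shPAX8-2 above the sgNTC18 libraries, with no overlap. Fitted as shPAX8-1 over shPAX8-2, the log2 fold change was -1.57 ± 0.09 in 786-M1A, given as a description because it entered the choice of the genes, and -1.02 ± 0.08, adjusted p = 1.57e-08 in OS-LM1. Over sgNTC18 in OS-LM1 it was -0.75 ± 0.08, adjusted p = 4.89e-08 with shPAX8-1 and 0.27 ± 0.08, adjusted p = 0.00487 with shPAX8-2. The pairs of 786-M1A shPAX8-1 libraries that stood apart for other members did not do so here, with values from 218 to 228 CPM.

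P4HB, a disulphide isomerase that is also a subunit of prolyl hydroxylase, was the other isomerase lower with shPAX8-1 in 786-M1A (-0.53 ± 0.11, adjusted p = 0.00155), where it stood at 2418, 2427, 2138 and 2542 CPM with shPAX8-2 and 1988, 1742, 1447 and 1431 CPM with shPAX8-1. Those groups did not overlap. The disulphide isomerases PDIA6, PDIA3, PDIA4 and TXNDC5 were higher with shPAX8-1 in that line, by 1.23, 0.46, 0.33 and 0.42 on the log2 scale. PDIA6 stood at 221, 212, 302 and 298 CPM with shPAX8-2 and 454, 491, 711 and 763 CPM with shPAX8-1. PDIA4 had opposite directions relative to sgNTC18, with 1.17 ± 0.09 and 0.84 ± 0.09 in 786-M1A and -0.66 ± 0.08 and -0.87 ± 0.08 in OS-LM1 for shPAX8-1 and shPAX8-2, all past the threshold. PDIA3 was higher in each of the 4 comparisons with sgNTC18, from 0.55 to 1.42 on the log2 scale.

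CALU, of the EF-hand proteins, stood in 786-M1A at 971, 743, 867 and 886 CPM with sgNTC18, at 809, 749.6, 1008 and 880.1 CPM with shPAX8-2 and at 1648, 1819.8, 2575 and 2551 CPM with shPAX8-1. The OS-LM1 values were 672, 637, 703 and 706 CPM with sgNTC18, 719, 783, 633 and 696 CPM with shPAX8-2 and 953, 1017, 1085 and 893 CPM with shPAX8-1. The shPAX8-1 libraries lay above all others of their line, and those with shPAX8-2 overlapped sgNTC18. As a log2 fold change of shPAX8-1 over shPAX8-2 this was 1.32 ± 0.15, adjusted p = 1.63e-05 in 786-M1A and 0.45 ± 0.09, adjusted p = 8.17e-04 in OS-LM1. RCN1, a related reticulocalbin, did not pass between the constructs in either line (0.16 and -0.04).

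HERPUD1, which brings substrates to the degradation complex at the ER membrane, differed between the lines in its change from sgNTC18. It stood in 786-M1A at 82.0, 77.9, 81.7 and 83.8 CPM with sgNTC18, at 215, 222, 199.8 and 212 CPM with shPAX8-2 and at 373, 292, 408 and 411 CPM with shPAX8-1. In OS-LM1 the values were 95, 75.9, 90 and 86.0 CPM with sgNTC18, 76.0, 81.4, 76.4 and 81.2 CPM with shPAX8-2 and 88.1, 75.2, 77.2 and 83.1 CPM with shPAX8-1. The 3 groups were separate in 786-M1A and overlapped in OS-LM1. From shPAX8-2 to shPAX8-1 the log2 fold change was 0.81 ± 0.10, adjusted p = 5.05e-05 in 786-M1A and 0.01 ± 0.08, adjusted p = 0.95 in OS-LM1. Over sgNTC18 it was 2.21 ± 0.11, adjusted p = 3.57e-10 and 1.40 ± 0.11, adjusted p = 4.37e-08 in 786-M1A, and -0.12 ± 0.08, adjusted p = 0.190 and -0.13 ± 0.08, adjusted p = 0.166 in OS-LM1.

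EDEM1 stood at 119, 113, 125 and 108 CPM with shPAX8-2 and 75.6, 86.6, 96.5 and 70.7 CPM with shPAX8-1 in OS-LM1, where the groups did not overlap (-0.53 ± 0.10, adjusted p = 3.22e-04), and at 70.4, 67.6, 66.2 and 70.5 and 56.7, 49.6, 58.7 and 59.9 CPM in 786-M1A (-0.29 ± 0.11, adjusted p = 0.0432). It was the degradation factor lower with shPAX8-1 in both lines. SEL1L, the adaptor of the HRD1 ligase complex, rose with shPAX8-1 over shPAX8-2 in 786-M1A (0.69 ± 0.15), and SYVN1, the ubiquitin ligase itself, did not pass (-0.07 ± 0.12, adjusted p = 0.625). Against sgNTC18 in 786-M1A SYVN1 rose with both constructs, by 1.14 ± 0.12 and 1.21 ± 0.12 on the log2 scale.

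The derlins DERL1, DERL2 and DERL3 are membrane proteins of the retrotranslocation channel. DERL1 stood at 212, 183, 193 and 197 CPM in 786-M1A and 96.9, 82.2, 92.1 and 93.6 CPM in OS-LM1 with sgNTC18, and DERL2 at 70.3, 57.5, 62.3 and 72.5 and 134, 128, 151 and 141 CPM. The lines did not overlap for either gene, and DERL1 was lower (-1.11 ± 0.11, adjusted p = 7.67e-10) and DERL2 higher (1.08 ± 0.16, adjusted p = 1.81e-06) in OS-LM1. DERL3 in 786-M1A stood at 2.67, 3.37, 3.14 and 3.25 CPM with sgNTC18, at 12, 12.1, 7.71 and 12.1 CPM with shPAX8-2 and at 19.6, 19.5, 14.5 and 14.7 CPM with shPAX8-1. In OS-LM1 it had 21 to 29 counts per library with sgNTC18 (0.817, 0.762, 0.584 and 0.753 CPM) and 1 to 5 counts per library with either shPAX8 construct.

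The direction of DERL3 therefore differed by line, higher with shPAX8-1 in 786-M1A (2.48 ± 0.18, adjusted p = 1.13e-08) and with few counts in OS-LM1. There the ratio of pooled counts per library size was 0.121 with shPAX8-1 over sgNTC18 (95% exact interval 0.0509 to 0.248, 8 against 101 counts) and 0.162 with shPAX8-2 (0.0834 to 0.290, 13 against 101 counts), and these intervals cover counting error only. The fitted test called both lower, with adjusted p = 7.82e-06 and 2.57e-05. In OS-LM1, DERL3 passed the filter on low counts only through the sgNTC18 libraries, where it is highest. A lower value with the constructs is therefore favoured by the filter, and these calls are given as a description.

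The 3 sensors and XBP1 were higher than sgNTC18 with either construct in both lines, except EIF2AK3 with shPAX8-1 in OS-LM1. ERN1 (IRE1) in 786-M1A stood at 4.15, 2.76, 4.27 and 4.52 CPM with sgNTC18, at 19.6, 19.7, 11.8 and 12.3 CPM with shPAX8-2 and at 25.1, 21.2, 20.8 and 15.9 CPM with shPAX8-1. In OS-LM1 it stood at 8.56, 9.67, 8.96 and 8.29 CPM with sgNTC18, at 21.3, 19.9, 28.4 and 22.4 CPM with shPAX8-2 and at 20.7, 25.1, 19.8 and 21.2 CPM with shPAX8-1. In both lines all shPAX8 libraries lay above all sgNTC18 libraries, and the constructs overlapped each other. Over sgNTC18 the log2 fold change was 2.41 ± 0.22, adjusted p = 1.26e-07 and 2.03 ± 0.22, adjusted p = 1.34e-06 in 786-M1A, and 1.26 ± 0.12, adjusted p = 1.81e-08 and 1.38 ± 0.12, adjusted p = 6.04e-09 in OS-LM1. Between the constructs it did not pass (0.38 ± 0.20, adjusted p = 0.130 and -0.12 ± 0.12, adjusted p = 0.477).

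ATF6 in 786-M1A stood at 94.4, 75.3, 85.5 and 85.0 CPM with sgNTC18, at 101, 95.6, 131 and 102 CPM with shPAX8-2 and at 125, 144, 184 and 187 CPM with shPAX8-1. In OS-LM1 it stood at 87.8, 82.3, 90.4 and 90.2 CPM with sgNTC18, at 147, 175, 137 and 157 CPM with shPAX8-2 and at 157, 145, 166 and 157 CPM with shPAX8-1. The constructs overlapped each other and lay above sgNTC18 in both lines. Between them the log2 fold change was 0.58 ± 0.14, adjusted p = 0.00417 in 786-M1A, and with replicates 1 and 2 of shPAX8-1 alone it was 0.33 and did not pass. In OS-LM1 it was -0.01 ± 0.09, adjusted p = 0.949.

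EIF2AK3 (PERK) in 786-M1A stood at 33.1, 26.1, 25.0 and 26.6 CPM with sgNTC18, at 37.7, 41.3, 50.1 and 41.3 CPM with shPAX8-2 and at 57.3, 55.2, 102 and 99.3 CPM with shPAX8-1. In OS-LM1 it stood at 32.9, 31.2, 35.6 and 35.9 CPM with sgNTC18, at 54.4, 57.2, 45.7 and 47.9 CPM with shPAX8-2 and at 34.2, 41.3, 39.2 and 32.5 CPM with shPAX8-1. The order of the constructs was therefore opposite in the 2 lines, with no overlap between them in either. The log2 fold change was 0.88 ± 0.19, adjusted p = 0.00215 in 786-M1A and -0.51 ± 0.10, adjusted p = 0.00110 in OS-LM1. The 786-M1A value was 0.41 with replicates 1 and 2 alone and 1.24 with replicates 3 and 4 alone, both past the threshold.

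XBP1, whose transcript IRE1 splices, in 786-M1A stood at 289.6, 280.4, 298 and 307 CPM with sgNTC18, at 386, 358, 422 and 417 CPM with shPAX8-2 and at 452, 378, 481 and 512 CPM with shPAX8-1. In OS-LM1 it stood at 218, 203, 228 and 206 CPM with sgNTC18, at 298, 361, 288 and 332 CPM with shPAX8-2 and at 316, 259, 258 and 311 CPM with shPAX8-1. Both constructs lay above sgNTC18 in each line and overlapped each other. Between the constructs XBP1 did not pass (0.21 ± 0.10, adjusted p = 0.10 and -0.19 ± 0.09, adjusted p = 0.134), and over sgNTC18 it rose by 0.66 ± 0.10 and 0.45 ± 0.10 in 786-M1A and by 0.39 ± 0.09 and 0.59 ± 0.09 in OS-LM1 on the log2 scale.

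Of the translocon members, SEC61B stood in 786-M1A at 214, 214, 209.7 and 208 CPM with sgNTC18, at 55.2, 57.7, 63.2 and 82.2 CPM with shPAX8-2 and at 71.6, 72.8, 75.3 and 86.9 CPM with shPAX8-1. In OS-LM1 it stood at 134, 116, 142 and 119.9 CPM with sgNTC18, at 97.4, 119, 93.7 and 110.2 CPM with shPAX8-2 and at 100, 85.3, 88.0 and 95.5 CPM with shPAX8-1. It fell with both constructs in 786-M1A (-1.44 ± 0.12, adjusted p = 5.47e-08 and -1.69 ± 0.12, adjusted p = 2.36e-08) and less so in OS-LM1 (-0.50 ± 0.09, adjusted p = 9.30e-05 and -0.28 ± 0.09, adjusted p = 0.0128). In each 786-M1A shPAX8 library it was below the lowest sgNTC18 library, while in OS-LM1 1 shPAX8-2 library lay within the sgNTC18 range. SEC61A1, which forms the channel, did not pass in 786-M1A with shPAX8-1 over sgNTC18 (0.02 ± 0.08, adjusted p = 0.833). It rose there with shPAX8-2 (0.21 ± 0.08, adjusted p = 0.0251) and in OS-LM1 with both constructs (0.24 ± 0.08, adjusted p = 0.0128 with shPAX8-1 and 0.60 ± 0.08, adjusted p = 2.09e-06 with shPAX8-2), each time without overlap with sgNTC18. SSR1, a subunit of the translocon-associated protein complex, rose with shPAX8-1 over shPAX8-2 in 786-M1A (0.56 ± 0.13, adjusted p = 0.00338) and gave 0.09 ± 0.10, adjusted p = 0.511 in OS-LM1. SERP1, a stress-associated translocon protein, rose in all 4 comparisons with sgNTC18, from 0.68 to 1.55 on the log2 scale.

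**Figure D4:**
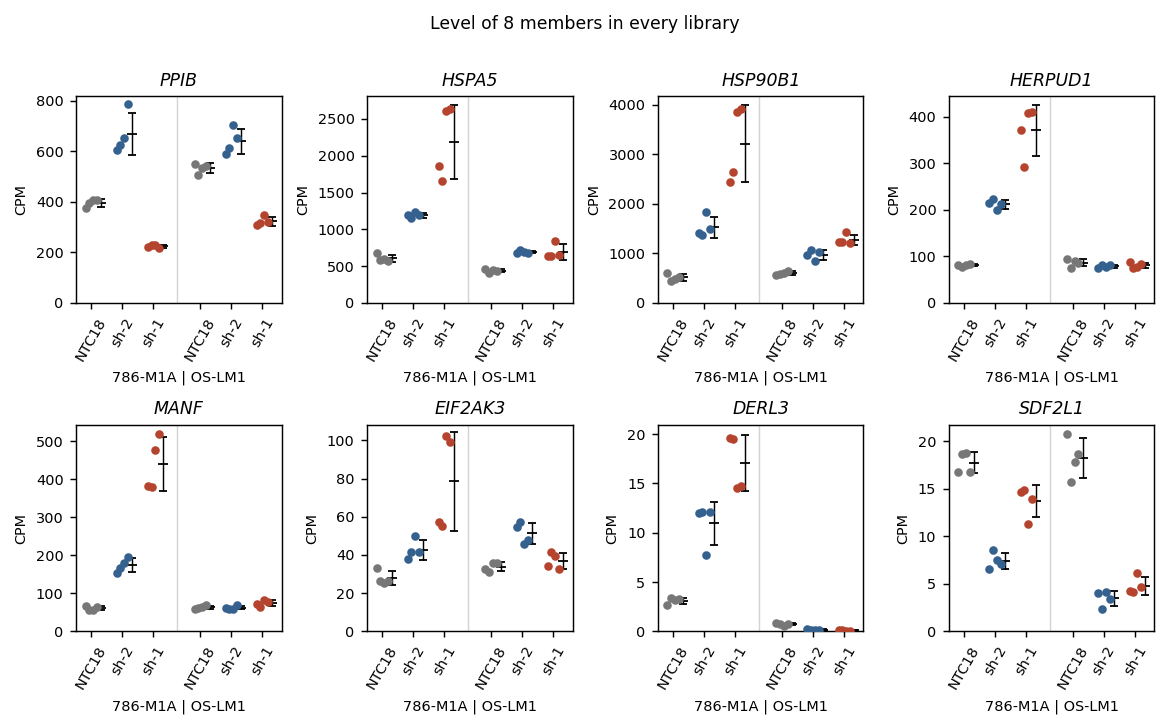
CPM (vertical axes, from 0) of 8 members in every library, with sgNTC18 (NTC18), shPAX8-2 (sh-2) and shPAX8-1 (sh-1) on the horizontal axis, 786-M1A left and OS-LM1 right of the line, and the mean ± SD of 4 libraries beside the points. PPIB has the same order of groups in both lines, HERPUD1 is above sgNTC18 with both constructs in 786-M1A and overlaps it in OS-LM1, and EIF2AK3 has its constructs in opposite order.

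The lines themselves were compared within one kind of construct. In the sgNTC18 libraries the members differed in both directions, with 8 higher and 9 lower in OS-LM1, against 32% and 31% of all 15665 genes tested, and a median of 0.01 over the members and over all genes. DNAJC3 and ERN1 (1.16 ± 0.18, adjusted p = 3.45e-06) were the highest of these, and DERL3 (-2.08 ± 0.19, adjusted p = 4.18e-10) and DERL1 the lowest. In the shPAX8 libraries, with the constructs weighted equally, 10 members were higher and 22 lower in OS-LM1, against 41.7% and 41.5% of all genes, with a median of -0.52 against 0.00 over all genes. With either pair of 786-M1A shPAX8-1 libraries alone 9 were higher and 21 (replicates 1 and 2) or 23 (replicates 3 and 4) lower. The shares of all genes were 40.8% higher and 41.4% lower with replicates 1 and 2, and 40.8% and 40.1% with replicates 3 and 4. MANF (-2.04 ± 0.08, adjusted p = 1.17e-18), SYVN1 (-1.90 ± 0.08, adjusted p = 1.44e-17) and PDIA4 (-1.89 ± 0.06, adjusted p = 5.46e-20) were lowest after DERL3, and DERL2 (1.41 ± 0.12, adjusted p = 1.08e-11) was the highest. PAX8 itself was 1.48 ± 0.10 higher in OS-LM1 in these libraries on the log2 scale, so line and extent of depletion cannot be told apart here. In bulk RNA a lower level per cell and fewer cells with the transcript cannot be told apart either.

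The 11 members whose promoter windows held an ERSE or ERSE-II match, printed above, were described against the 20 whose windows held none. In the shPAX8 libraries all 11 were lower in OS-LM1, with log2 fold changes from -1.81 (HERPUD1) to -0.26 (CANX) and a median of -0.99. Of the 20 without a match 10 were higher and 9 lower, with a median of 0.03. Of all genes 41.7% were higher and 41.5% lower there. In the sgNTC18 libraries the same 11 gave 1 higher and 3 lower, with a median of -0.01. The 20 without a match gave 6 higher and 4 lower, with a median of 0.04, against 32% and 31% of all genes. Between the constructs in 786-M1A 9 of the 11 were higher with shPAX8-1 and none lower, with a median of 0.66, and of the 20 others 12 were higher and 3 lower, with a median of 0.49. One of those 3 is PPIB, whose value in this contrast entered the choice of genes. Of all genes 24.2% were higher and 22.9% lower in this contrast. MANF and DNAJB9 were among the members without the letters and also rose with shPAX8-1 over shPAX8-2 in 786-M1A. Over sgNTC18 in 786-M1A the medians with and without a match were 1.11 and 0.93 with shPAX8-1, and 0.51 and 0.41 with shPAX8-2. In OS-LM1 they were 0.18 and 0.22 with shPAX8-1, and -0.13 and 0.31 with shPAX8-2. These groups were formed after earlier results were known, and no test was made of the difference between them.

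**Figure D5:**
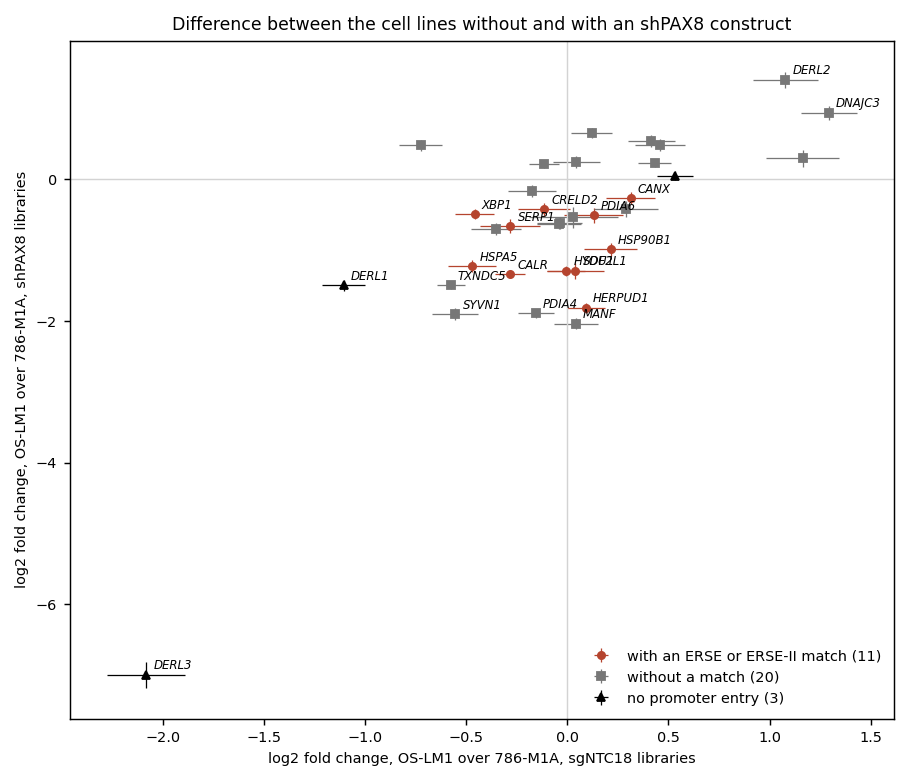
Log2 fold change of OS-LM1 over 786-M1A for each member in the sgNTC18 libraries (horizontal axis) and in the shPAX8 libraries (vertical axis), with standard errors and with members marked by a match to ERSE or ERSE-II in the promoter window. The 11 members with a match lie below 0 on the vertical axis and on both sides of 0 on the horizontal axis, and DERL3 lies furthest down at -6.99, a fitted value that rests on 1 to 5 counts per OS-LM1 library.

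A further 68 genes of the same pathway, listed by hand, were counted in the same fits. Between the constructs in 786-M1A 24 were higher and 11 lower with shPAX8-1, with a median of 0.26. These are 35.3% and 16.2% of the 68, against 24.2% and 22.9% of all genes tested. In OS-LM1 6 were higher and 9 lower (8.82% and 13.2%), below the 12.4% and 16.7% of all genes. The highest in 786-M1A was DDIT3 (CHOP), the transcription factor of the PERK branch, at 1.72 ± 0.17, adjusted p = 6.75e-06, and the lowest CREB3L1, an ER-bound transcription factor, at -0.92 ± 0.15, adjusted p = 2.38e-04. The J-domain reductase DNAJC10 (1.02 ± 0.20, adjusted p = 0.00114) and the mannosidase-like EDEM3 (0.98 ± 0.18, adjusted p = 5.62e-04) led their groups. Over sgNTC18 in 786-M1A 42 were higher and 16 lower with shPAX8-1 (61.8% and 23.5%, against 36.1% and 34.5% of all genes), and 34 and 13 with shPAX8-2 (50% and 19.1%, against 31.5% and 30.9%). In both LMAN1, a cargo receptor for export from the ER, led its group (1.96 ± 0.17, adjusted p = 9.92e-08 and 1.52 ± 0.17, adjusted p = 2.21e-06). SEC11C, a subunit of the signal peptidase, was lowest in its group in both (-2.01 ± 0.22, adjusted p = 1.19e-06 and -2.41 ± 0.23, adjusted p = 4.66e-07).

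In OS-LM1 29 of the 68 were higher and 24 lower than sgNTC18 with shPAX8-1, which is 42.6% and 35.3%, against 35.6% and 35.8% of all genes. With shPAX8-2 27 were higher and 22 lower, which is 39.7% and 32.4%, against 34.3% and 34.1% of all genes, so both sets of shares were near those of all genes. ATF3, a stress-induced transcription factor downstream of PERK, was the highest of the signalling genes with both (2.67 ± 0.12, adjusted p = 4.17e-13 and 2.63 ± 0.12, adjusted p = 7.08e-13), and DDIT3 the lowest of them with shPAX8-2 (-1.16 ± 0.13, adjusted p = 1.54e-07). FKBP2, a proline isomerase of the ER, was lowest of the folding factors with both (-1.78 ± 0.14, adjusted p = 7.93e-10 and -1.54 ± 0.14, adjusted p = 6.24e-09). Between the lines 22 of the 68 were higher and 33 lower in OS-LM1 in the shPAX8 libraries (32.4% and 48.5%, against 41.7% and 41.5% of all genes). In the sgNTC18 libraries 19 were higher and 19 lower (27.9% each, against 32% and 31% of all genes).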

How the data were processed

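Poly(A) RNA was sequenced from 2 established cell lines with sgNTC18, shPAX8-1 or shPAX8-2 in 4 replicates each. The authors mapped reads to hg38 and estimated gene levels with RSEM and bowtie2, whose versions are not given in the sources used here, and deposited an expected count and a TPM value per gene and library. An expected count shares out reads that match several genes, so values of genes with near-identical copies are estimates. The kit is a KAPA stranded mRNA kit by the labels and a Lexogen kit by the study's methods.

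Expected counts were rounded and tested with edgeR (4.0.16, R 4.3.3) by the robust quasi-likelihood test with TMM scaling, filterByExpr and Benjamini-Hochberg adjustment over all genes tested, with a threshold of 0.05. Contrasts within a line were fitted on its 12 libraries, and contrasts between lines on all 24. DESeq2 (1.42.0), other scalings and filters, a replicate block, thinning, removal of GC trends and libraries left out were alternatives. The code was tested on simulated counts. TPM served only to compare genes.

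The members and gene lists were chosen with earlier results of these data known. PPIB, HSPA5, HSP90B1, DNAJB9, HERPUD1, SDF2L1, XBP1, ERN1, ATF6 and EIF2AK3 were to be named, with the 2 highest and 2 lowest members of each comparison past the threshold, and pathway genes where highest or lowest of their group. Other members given with values, such as HYOU1, PDIA4, PDIA6, SYVN1 and SSR1, were chosen after their values were seen. Chi-square values compared counts of pairs of libraries. Promoters came from RefSeq and transcripts from GENCODE. Totals of 11634419 to 52059375 expected counts set the precision, and intervals cover counting error only.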

Additional observations from a re-analysis of the deposited data

Results flagged for a closer look

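Libraries that stood apart from the other 3 of their group by Dixon's criterion were found in 8 of 120 groups over 20 members, and chance gives about 1 in 20 groups, or 6 of 120. In 786-M1A, CRELD2 was 31.7 CPM in replicate 4 of sgNTC18 (others 37.1 to 37.8) and 27.6 CPM in replicate 4 of shPAX8-2 (others 19.8 to 20.3). Replicate 3 of shPAX8-2 held 7.71 CPM of DERL3 (others 12 to 12.1) and 18.7 CPM of DNAJB9 (others 15.7 to 16.1). In OS-LM1, DNAJC3 was 78.3 CPM in replicate 2 of sgNTC18 (others 93.3 to 94.7) and HSPA5 716 CPM in replicate 2 of shPAX8-2 (others 681 to 686). Replicate 3 of OS-LM1 shPAX8-1 was high for both main chaperones, with 847 CPM of HSPA5 (others 631 to 649) and 1427 CPM of HSP90B1 (others 1205 to 1237).

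The contrast between the constructs differed by line, in a test of the difference itself, for EIF2AK3 (-1.36 in log2 fold change, OS-LM1 minus 786-M1A), DNAJB9 (-0.99), HSPA5 (-0.88), HERPUD1 (-0.77), HSP90B1 (-0.69), ATF6 (-0.55) and XBP1 (-0.37). PPIB gave 0.59, in part fixed by its choice. The change from sgNTC18 to the mean of both constructs differed by line for HERPUD1 (-1.90), SDF2L1 (-1.33), HSP90B1 (-1.20), ERN1 (-0.86), HSPA5 (-0.75) and EIF2AK3 (-0.70). PAX8 was itself lowered less in OS-LM1, with log2 fold changes over sgNTC18 of -1.76 and -1.71 against -4.16 and -2.99 in 786-M1A for shPAX8-1 and shPAX8-2, and its part in these differences was not tested.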

How the results depend on the processing

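Of 95 values of named members that were past the threshold in the main fit, 70 kept their call and direction under every alternative. Values not past the threshold were left out of the 95. The 95 include PPIB between the constructs in 786-M1A, which entered the choice of genes, so that its result there adds no support. The 2 that reversed did so after removal of the GC trend, SDF2L1 with shPAX8-1 over sgNTC18 in 786-M1A (0.31) and ATF6 between the lines in shPAX8 libraries (-0.020), and the cause was not tested. The members called between the constructs in OS-LM1 numbered 16 with the GC trend removed and 1 with a log2 fold change over 0.58 also required. That requirement alone left 14 members called over sgNTC18 in OS-LM1 with shPAX8-1 and 14 with shPAX8-2, 6 between the lines in sgNTC18 libraries and 19 in shPAX8 libraries. The share of all genes under that requirement was not computed, so these counts have no background to be read against. The line dependence of the constructs was called for 11 members, in place of 19, with replicates 1 and 2 of 786-M1A shPAX8-1 only. With any 1 library left out, the members called between the constructs numbered 25 to 28 in 786-M1A and 8 to 13 in OS-LM1, PPIB included. Over sgNTC18 they numbered 29 to 31 and 25 to 26 in 786-M1A, and 24 to 28 and 27 to 29 in OS-LM1, with shPAX8-1 and shPAX8-2. Between the lines they numbered 16 to 17 with sgNTC18 and 31 to 33 with shPAX8, and the line dependences 15 to 23 (constructs) and 22 to 26 (shPAX8 over sgNTC18). Shares of all genes with 1 library left out are not given here.

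Replicates share numbers between groups. The correlation of same-numbered deviations had a mean of 0.047 in 786-M1A (from -0.32 to 0.27) and of -0.041 in OS-LM1 (from -0.17 to 0.12). On average the numbers therefore did not pair the libraries, which does not exclude a batch common to some groups. With the replicate block, 24 members were higher and 3 lower between the constructs in 786-M1A, PPIB included, against 24.8% and 23.6% of all genes. In OS-LM1 the counts were 4 and 4, against 10.4% and 13.8%. Over sgNTC18 the block gave 26 and 5 with shPAX8-1 and 23 and 4 with shPAX8-2 in 786-M1A, and 15 and 10, and 18 and 10, in OS-LM1. The shares of all genes were, in that order, 36.0% and 35.2%, 31.8% and 31.7%, 34.3% and 34.5%, and 32.9% and 32.5%. The depth limits DERL3 in OS-LM1, with 1 to 5 counts in each shPAX8 library.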

Other observations

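Letters complementary to bases 2 to 8 of each construct were counted in the longest protein-coding GENCODE transcript of each gene, as a description of sequence. GACTCAC, the complement for shPAX8-1, was present in 4 of the 34 members (11.8%), HSP90B1, P4HB, PPIB and SEL1L, against 16.4% of 12080 tested genes. CAACTCT, the complement for shPAX8-2, was present in 8 members (23.5%), HYOU1, DNAJB9, PPIB, CALU, SEL1L, SYVN1, ERN1 and SEC61A1, against 21.9% of genes. PPIB and SEL1L held both. With shPAX8-1 over sgNTC18 in OS-LM1 the 4 members with GACTCAC gave log2 fold changes of 1.06 ± 0.09 (HSP90B1), -0.72 ± 0.10 (P4HB), -0.75 ± 0.08 (PPIB) and 0.64 ± 0.09 (SEL1L). In 786-M1A the ratios of mean CPM were 6.18, 0.826, 0.566 and 1.87 in that order, and the groups of P4HB overlapped. The match began at base 825 of 973 in PPIB. It began at base 166 of 3112 in HSP90B1, 813 of 3432 in P4HB and 1054 of 7919 in SEL1L. The members with CAACTCT are not set out in this way, and an effect of a match was not tested.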
